A study of Mus musculus with 9 samples.

Results

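The canonical transforming growth factor β (TGF-β) pathway was followed here through 9 genes. They were Tgfb1, Tgfbr1, Tgfbr2, Smad2, Smad3, Smad4, Smad7, Ski and Skil, found by symbol among the 24060 genes of the expression table. All 9 were among the 11330 genes whose highest value exceeded 1 TPM, the minimum for testing, where TPM is a length-corrected share of all transcripts in a library. The cells were CD8 T cells from BALB/c mice with intact Rag2 of 3 transnuclear lines, R7-I, R7-II and R7-III. Each line was made from the nucleus of 1 T cell specific for the Toxoplasma antigen ROP7 and carries that cell's T cell receptor in its endogenous loci, so each line stands for a single clone. In the submitters' ranking, affinity for the peptide falls from R7-I through R7-III to R7-II, and self-reactivity from R7-III through R7-I to R7-II. Splenocytes of all groups were kept overnight in serum-containing medium with IL-2 at 10 ng/ml and ROP7 peptide at 10 µM, and CD3+ CD8+ tetramer-positive cells were then sorted to a purity of 90 to 95%. There were 3 biological replicates per clone, 9 libraries in all, and no group was set by TGF-β itself. The age of the mice was not given in the sources used here, and cells kept without peptide were not analysed here.

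TGF-β is made as a latent dimer that must be activated outside the cell. The active ligand binds the type II receptor, which recruits and phosphorylates the type I receptor, and that kinase phosphorylates Smad2 and Smad3. These join Smad4 and act in the nucleus on target genes, while Smad7, itself a target, shuts off the receptor, and Ski and its relative SnoN (encoded by Skil) hold Smad complexes in a repressed state. In CD8 T cells the pathway is known for restraining effector genes and for raising CD103, the integrin αE chain that marks many resident memory cells.

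In the sorted cells, both receptors, Smad3, Smad4, Smad7 and Ski had a larger share of all transcripts in R7-II than in R7-I. Of these, Smad3 did not pass under either rescaling used below. Tgfb1, Smad2 and Skil did not pass the test on the TPM scale. With limma on log2(TPM + 1), the R7-II and R7-I clones differed at an adjusted p of 0.01 in 6 of 9 members, beside 56.1% of all genes tested. All 6 were higher in R7-II, against a background of 40.6% of genes higher and 15.5% lower. None was lower, and 0 members were lower at an unadjusted p under 0.05. Against R7-III, 7 of 9 members passed, beside 53.6% of genes. Of these, 6 were higher in R7-II (background 35.6%) and Tgfb1 was lower (background 18.0%). R7-III and R7-I differed in Tgfb1 alone, which was higher in R7-III, beside 8.41% of genes in either direction, 6.96% higher and 1.45% lower. In that comparison 0 members were lower, and Skil alone was lower at an unadjusted p under 0.05. Both comparisons of R7-II share the same R7-II libraries.

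**Figure D1:**
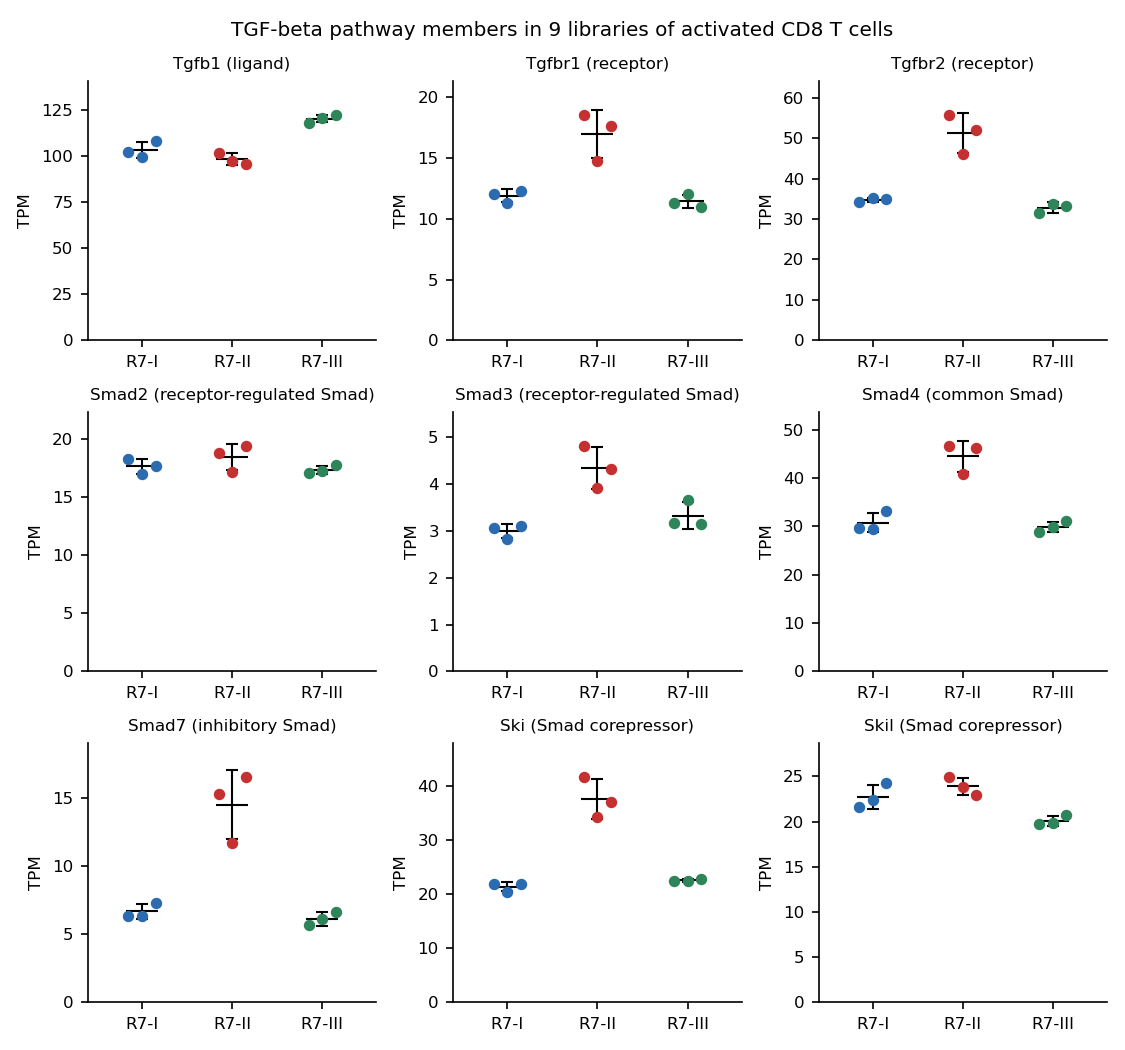
Each panel plots 1 gene, with TPM from 0 on the y axis and the 3 clones on the x axis; points are libraries, and the black bar with whiskers is the mean ± SD of 3 libraries. The R7-II points of Tgfbr1, Tgfbr2, Smad3, Smad4, Smad7 and Ski lie above all other points, those of Smad2 do not, and the R7-III points of Tgfb1 are the highest.

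In 6 of 9 members every R7-II library lay above the other 6 libraries, which 41.7% of all genes also did. In 0 of 9 members every R7-II library lay below them, against 17.4% of genes. R7-III and R7-I libraries did not overlap in 5 of 9 members, against 41.9% of genes, with Tgfb1, Smad3 and Ski above and Tgfbr2 and Skil below in R7-III. TPM is a share of a fixed total, and the whole transcriptome was displaced on this scale. The median log2 fold change of all genes was 0.17 when R7-II was set against R7-I, 0.12 when it was set against R7-III, and 0.04 in the comparison of R7-III with R7-I. The members' medians were 0.47, 0.53 and -0.04. After median-of-ratios scaling, which centres the typical gene, the medians of all genes were 0.01, 0.00 and 0.00, and those of the members 0.31, 0.41 and -0.09. Of the genes that passed, 72.4% were higher in R7-II when compared with R7-I on the TPM scale and 47.7% after this scaling. Against R7-III these shares were 66.4% and 47.9%, and between R7-III and R7-I 82.8% and 59.0%. In bulk samples, fewer cells of a type and less RNA per cell cannot be told apart.

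**Figure D2:**
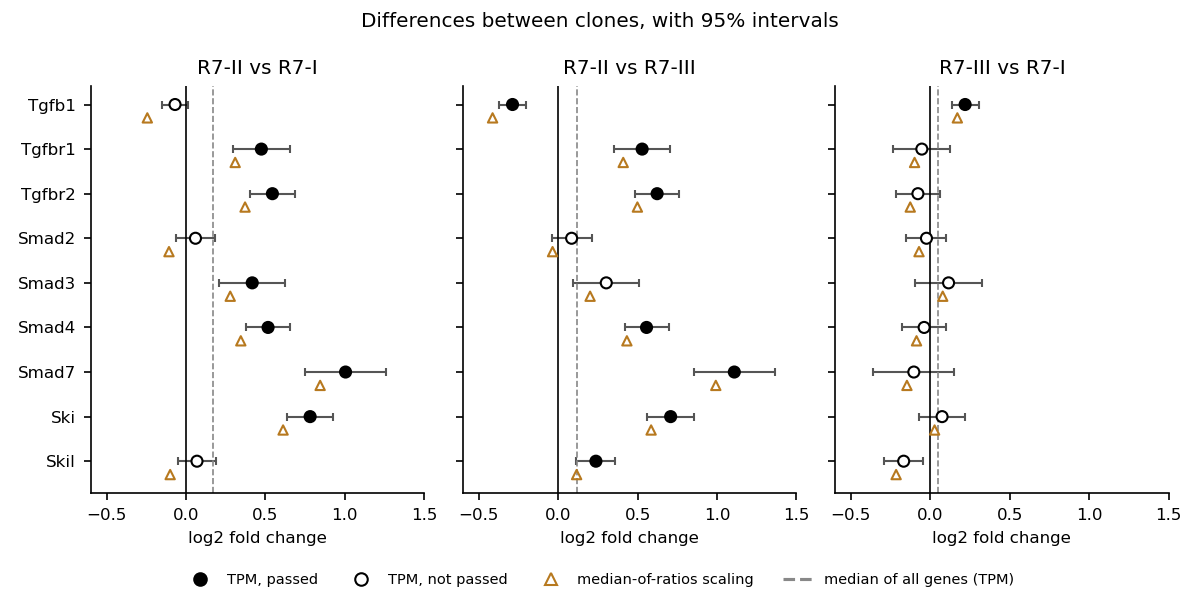
Log2 fold changes of the 9 members in 3 comparisons, on log2(TPM + 1), with 95% intervals from limma as whiskers; filled circles passed an adjusted p of 0.01, triangles are the values after median-of-ratios scaling, and the dashed line is the median of all genes. Smad7 and Ski lie farthest to the right in both comparisons of R7-II, and Smad2 and Skil cross 0 in R7-II against R7-I when rescaled.

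The labelled cell type was checked first. The 7 CD8 T cell markers, led by Lck and Zap70, summed to between 2156 and 2188 TPM in R7-I, 3047 and 3094 in R7-II, and 2362 and 2419 in R7-III. RNA of other cells also stood higher in R7-II. The 8 B cell markers, led by Cd79b and Cd79a, summed to between 34.3 and 72.3 TPM in R7-II, 8.55 and 15.7 in R7-I, and 5.24 and 7.99 in R7-III. All 8 passed in both comparisons of R7-II. The 7 MHC class II genes, led by Cd74 and H2-Aa, summed to between 114.8 and 185.9 TPM in R7-II, 33.0 and 50.4 in R7-I, and 25.0 and 29.2 in R7-III, and all 7 passed in both. The 9 myeloid markers, led by Lyz2 and Cd68, summed to between 24.9 and 83.2 TPM in R7-II against 5.22 to 7.27 in R7-I and 6.52 to 7.99 in R7-III, and 6 of the 8 tested passed in both.

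Markers of platelets, which are rich in TGF-β1, were low in all clones. Their 5 genes summed to between 1.94 and 2.91 TPM in R7-II, 1.22 and 1.38 in R7-I, and 0.98 and 1.2 in R7-III, nearly all of it Itga2b, while Ppbp was listed at 0 in every library and Gp9 averaged 0.0967 TPM in R7-II. Itga2b, the only platelet gene tested, was higher in R7-II in both comparisons, at 2.28 TPM against 1.27 in R7-I and 1.03 in R7-III (adjusted p = 0.00632 and 0.00127, limma). The first of these calls did not pass after median-of-ratios scaling (adjusted p = 0.0263), nor when any 1 R7-I replicate, R7-II replicate 2 or 3, or R7-III replicate 2 was left out (up to 0.0220, limma). The 4 CD4 T cell markers, led by Cd40lg and Cd4, summed to at most 8.01 TPM, in R7-III. Cd40lg alone of them had its highest mean there, at 5.41 TPM against 2.65 in R7-I and 2.18 in R7-II. The others had their highest mean in R7-II, Cd4 at 0.98 TPM against 0.30 in R7-I and 0.377 in R7-III. Of 2 tested, 0 passed against R7-I. Against R7-III 1 was lower and 1 higher in R7-II, the latter call lost without some single libraries (adjusted p up to 0.0186, limma). The 4 NK cell markers, led by Klre1 and Klrb1c, summed to at most 0.50 TPM, in R7-I. The 5 erythroid genes, led by Hba-a2 and Hba-a1, summed to 1.25 to 15.1 TPM in R7-II, 22.1 to 73.2 in R7-I and 8.99 to 25.4 in R7-III. R7-II thus lay below R7-I and overlapped R7-III, and Hba-a2 averaged 5.19 TPM in R7-II against 2.74 in R7-III. In limma 0 of 4 tested passed, with 2 and 1 lower in R7-II at an unadjusted p under 0.05 against R7-I and R7-III.

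**Figure D3:**
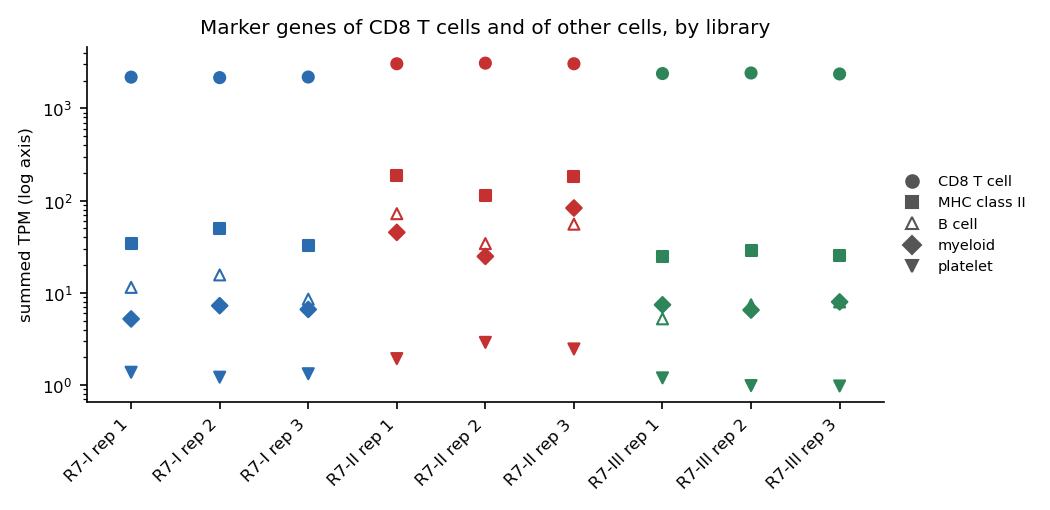
Summed TPM of 5 marker lists on a log axis for each of the 9 libraries, coloured by clone. B cell, MHC class II and myeloid sums are higher in all R7-II libraries than in the others and lowest, among R7-II, in replicate 2.

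Among R7-II libraries, replicate 2 had the lowest B cell, MHC class II and myeloid sums. It also had the lowest R7-II value of 7 of 9 members, namely Tgfbr1, Tgfbr2, Smad2, Smad3, Smad4, Smad7 and Ski. The same library was lowest for 49.7% of all genes tested and for 69.3% of the 3615 genes higher in R7-II in both comparisons. With this replicate as the only R7-II library, a choice made after seeing the data, 4 members passed against R7-I (Tgfbr2, Smad4, Smad7 and Ski). Against R7-III, 6 passed, namely Tgfbr1, Tgfbr2, Smad4, Smad7 and Ski, which were higher, and Tgfb1, which was lower. The fit then assumes that the lone library varies like the other groups. The part of the other cells' RNA in the members' values was not tested.

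The promoters of both receptors and Ski, 3 of the 6 members that rose in R7-II over R7-I, are shown beside that of Tgfb1, which was not. The windows of Smad4 and Smad7 were not used here. Each window runs from 250 bases before to 50 bases after the RefSeq transcription start in GRCm38.p6, the same chromosomes as the authors' mm10 build, and is written 5′ to 3′ on the gene's strand. In all, 6 windows of 5 members were read. Capitals mark CAGAC (or GTCTG), the core of the Smad-binding element, and CACCC (or GGGTG), a motif of Kruppel-like factors, searched on both strands and not overlapping each other. The Tgfbr2 window, chr9:116175314-116175613 on the minus strand, held 1 CAGAC match at -160 and 1 CACCC match at -149 from the start. That of Ski, chr4:155222486-155222785 on the minus strand, held 1 CACCC match at -64. The upstream start of Tgfbr1, chr4:47352972-47353271 on the plus strand, held 0 matches to either, while a downstream start (chr4:47385966-47386265, not printed) held 1 CAGAC match at -203 and 2 CACCC matches at -158 and -65. The Smad3 window (chr9:63757945-63758244 on the minus strand, not printed) held 1 CACCC match at 5, and the Tgfb1 window, chr7:25686752-25687051 on the plus strand, held 3 CACCC matches at -194, -170 and -47.
Tgfbr2: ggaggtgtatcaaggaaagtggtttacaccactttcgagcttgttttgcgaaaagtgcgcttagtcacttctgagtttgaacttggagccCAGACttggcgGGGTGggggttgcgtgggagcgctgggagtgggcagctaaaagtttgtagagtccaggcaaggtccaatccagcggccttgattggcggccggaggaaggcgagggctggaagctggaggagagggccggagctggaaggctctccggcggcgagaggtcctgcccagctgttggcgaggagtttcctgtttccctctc
Tgfbr1: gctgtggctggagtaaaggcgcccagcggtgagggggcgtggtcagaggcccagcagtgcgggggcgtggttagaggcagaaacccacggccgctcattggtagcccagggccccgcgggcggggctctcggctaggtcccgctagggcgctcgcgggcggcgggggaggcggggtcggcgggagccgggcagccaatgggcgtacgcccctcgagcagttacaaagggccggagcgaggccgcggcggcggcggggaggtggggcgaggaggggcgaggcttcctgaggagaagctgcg
Ski: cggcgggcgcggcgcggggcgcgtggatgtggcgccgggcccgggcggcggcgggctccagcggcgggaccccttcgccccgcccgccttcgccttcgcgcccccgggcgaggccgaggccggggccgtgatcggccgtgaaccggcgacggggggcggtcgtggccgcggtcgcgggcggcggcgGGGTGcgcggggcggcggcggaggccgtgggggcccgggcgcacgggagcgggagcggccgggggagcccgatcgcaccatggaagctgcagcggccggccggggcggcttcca
Tgfb1: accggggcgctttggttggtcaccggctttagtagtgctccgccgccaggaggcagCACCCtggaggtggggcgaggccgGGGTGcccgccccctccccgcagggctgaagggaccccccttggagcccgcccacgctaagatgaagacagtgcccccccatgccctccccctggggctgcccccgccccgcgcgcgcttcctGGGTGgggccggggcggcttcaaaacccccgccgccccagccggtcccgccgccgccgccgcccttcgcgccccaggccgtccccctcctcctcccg

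Of 32851 mouse promoter windows of the same length, 49.6% held CAGAC and 57.5% CACCC on either strand, so a single match is common. The full palindrome GTCTAGAC was in 0.213% of windows and in 0 of the 6 windows of these members. GC content was 59.0% in the Tgfbr2 window, 74.7% in that of Tgfbr1, 85.3% in that of Ski, 67.7% in that of Smad3 and 77.0% in that of Tgfb1. A match describes letters only.

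Tgfb1 (chr7:25687002-25705077), which encodes the ligand TGF-β1, was the most abundant member in every clone. Its TPM was 102.57, 99.69 and 108.19 in the R7-I libraries, 102.03, 97.61 and 96.06 in R7-II, and 118.20, 121.04 and 122.30 in R7-III. The R7-III libraries lay above all others, while R7-I and R7-II overlapped. R7-III exceeded R7-II, where Tgfb1 was lower by a log2 fold change of -0.29 ± 0.04 (SE, adjusted p = 7.17e-05, limma). It also exceeded R7-I, by 0.22 ± 0.04 on the log2 scale (adjusted p = 0.00316, limma), and this call did not pass without R7-I replicate 1 (adjusted p = 0.0176), R7-I replicate 2 (0.0152) or any R7-III replicate (0.0105, 0.0163 and 0.0156). R7-II did not pass against R7-I, at -0.07 with a 95% interval of -0.15 to 0.02. After median-of-ratios scaling that difference was -0.24 (adjusted p = 8.71e-05, limma), so the share of all RNA and the level relative to the typical gene gave different calls.

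The type I receptor gene Tgfbr1 (chr4:47353222-47414926) was measured at 12.07, 11.30 and 12.30 TPM in R7-I, 18.50, 14.78 and 17.63 in R7-II, and 11.26, 11.99 and 11.00 in R7-III. Each R7-II library exceeded every library of the other clones, and R7-I and R7-III overlapped. The means were 11.9 ± 0.524, 17.0 ± 1.95 and 11.4 ± 0.513 (SD, n = 3). R7-II was higher by a log2 fold change of 0.47 ± 0.08 over R7-I (SE, adjusted p = 3.89e-04, limma) and 0.53 ± 0.08 over R7-III (adjusted p = 1.97e-04). The first value fell to 0.20 and did not pass after quantile normalization (adjusted p = 0.0256). It also did not pass with R7-II replicate 2 as the only R7-II library, at 0.29 (adjusted p = 0.0156, limma).

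Tgfbr2 (chr9:116087695-116175363) encodes the ligand-binding type II receptor. It stood at 34.09, 35.20 and 34.85 TPM in R7-I, 55.63, 46.00 and 52.01 in R7-II, and 31.37, 33.79 and 33.33 in R7-III. Again the R7-II libraries were apart from the rest, and the R7-III libraries lay just below those of R7-I. The clone means were 34.7 ± 0.568, 51.2 ± 4.86 and 32.8 ± 1.29 TPM (SD, n = 3), so that R7-II was at 1.48 times the R7-I mean and 1.56 times that of R7-III. The log2 fold changes were 0.54 ± 0.06 (SE, adjusted p = 2.59e-05, limma) and 0.62 ± 0.06 (adjusted p = 1.06e-05), and 0.37 and 0.50 after median-of-ratios scaling. Between R7-III and R7-I the change was -0.08, with a 95% interval of -0.22 to 0.06. The receptors kept a near-constant proportion. The ratio of Tgfbr2 to Tgfbr1 TPM was 2.82, 3.12 and 2.83 in R7-I, 3.01, 3.11 and 2.95 in R7-II, and 2.79, 2.82 and 3.03 in R7-III, and the clones overlapped.

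The receptor-regulated Smads parted from each other. Smad2 (chr18:76241090-76311748) was at 18.29, 17.04 and 17.68 TPM in R7-I, 18.85, 17.18 and 19.39 in R7-II, and 17.06, 17.24 and 17.74 in R7-III, with all clones overlapping. Its log2 fold change was 0.06 for R7-II against R7-I, with a 95% interval of -0.07 to 0.19, and 0.08 against R7-III, from -0.04 to 0.21. Neither passed, and both turned negative, to -0.11 and -0.04, after median-of-ratios scaling. After quantile normalization Smad2 passed as lower in R7-II against R7-I, at -0.20 (adjusted p = 0.00449, limma). Smad3 (chr9:63646766-63757994) was the least abundant member, at 3.05, 2.82 and 3.10 TPM in R7-I, 4.80, 3.90 and 4.31 in R7-II, and 3.17, 3.66 and 3.14 in R7-III. The R7-II libraries were above the rest, with R7-II replicate 2 close to R7-III replicate 2.

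R7-II exceeded R7-I in Smad3 by a log2 fold change of 0.42 ± 0.09 (SE, adjusted p = 0.00256, limma). That call did not pass after median-of-ratios scaling (0.28, adjusted p = 0.0157) or quantile normalization (0.06, adjusted p = 0.599), nor without R7-I replicate 2 (adjusted p = 0.0122) or R7-II replicate 1 (0.0106). Against R7-III the value was 0.30, with a 95% interval of 0.09 to 0.51, and did not pass (adjusted p = 0.0156, limma). Without R7-II replicate 2 it passed (adjusted p = 0.00789, limma). Within libraries, Smad3 TPM was 0.166 to 0.175 of Smad2 TPM in R7-I, 0.222 to 0.255 in R7-II and 0.177 to 0.212 in R7-III. A ratio within a library does not depend on a single factor per library, such as median-of-ratios scaling, but quantile normalization can change it. On the TPM scale this ratio was higher in every R7-II library than in the other 6.

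Smad4 (chr18:73634790-73703791), the common partner of the receptor-regulated Smads, was at 29.72, 29.55 and 33.12 TPM in R7-I, 46.57, 40.81 and 46.13 in R7-II, and 28.94, 29.77 and 31.02 in R7-III. The R7-II libraries did not overlap the others, and R7-I and R7-III did overlap. Its mean was 44.5 ± 3.21 TPM in R7-II, 30.8 ± 2.01 in R7-I and 29.9 ± 1.05 in R7-III (SD, n = 3). The log2 fold changes were 0.52 ± 0.06 against R7-I (SE, adjusted p = 3.65e-05, limma) and 0.56 ± 0.06 against R7-III (adjusted p = 2.29e-05). These sizes were near those of Tgfbr2, and each of that pair was the member nearest to the other, with a root mean square difference of 0.0582 between their centred log2(TPM + 1) values over 9 libraries.

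The inhibitory Smad7 (chr18:75367365-75395935) showed the largest fold change of the 9 members in both comparisons of R7-II. It was at 6.35, 6.36 and 7.33 TPM in R7-I, 15.32, 11.72 and 16.52 in R7-II, and 5.66, 6.11 and 6.66 in R7-III. Even the lowest R7-II library was above the highest of the others. The means were 6.68 ± 0.563, 14.5 ± 2.50 and 6.14 ± 0.501 TPM (SD, n = 3), a ratio of 2.17 for R7-II over R7-I and of 2.36 over R7-III. The log2 fold changes were 1.00 ± 0.12 (SE, adjusted p = 2.49e-05, limma) and 1.11 ± 0.12 (adjusted p = 1.32e-05), and 0.84 and 0.99 after median-of-ratios scaling. Of all genes tested, 6.12% and 3.84% had a higher fold change in these comparisons. With R7-II replicate 2 as the only R7-II library the values were 0.73 and 0.83 and still passed (adjusted p = 0.00109 and 6.05e-04, limma). The TPM ratio of Smad7 to Smad3 was 2.08 to 2.37 in R7-I, 3.01 to 3.83 in R7-II and 1.67 to 2.12 in R7-III, highest in every R7-II library.

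**Figure D4:**
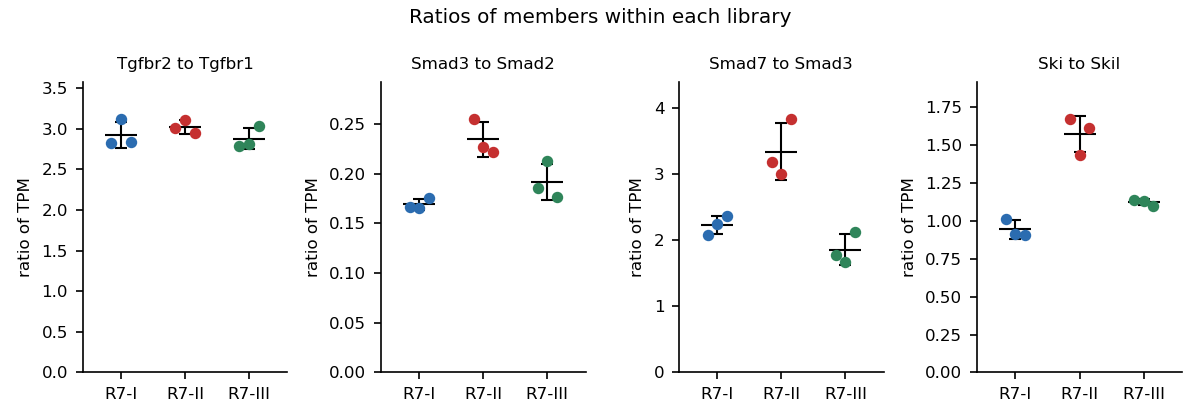
Ratios of TPM between 2 members of the same library, from 0 on the y axis, for 3 libraries per clone; the black bar with whiskers is the mean ± SD. The ratio of Tgfbr2 to Tgfbr1 overlaps between clones, and the other 3 ratios are higher in all R7-II libraries than in the other 6.

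Ski and Skil encode related proteins that recruit corepressors to Smad complexes, and their RNAs behaved differently. Ski (chr4:155154075-155222535) was at 21.91, 20.39 and 21.95 TPM in R7-I, 41.62, 34.22 and 37.04 in R7-II, and 22.47, 22.42 and 22.84 in R7-III. The R7-II libraries were far above the rest, and R7-III lay slightly above R7-I without overlap. R7-II exceeded R7-I by a log2 fold change of 0.78 ± 0.07 (SE, adjusted p = 2.90e-06, limma) and R7-III by 0.71 ± 0.07 (adjusted p = 5.98e-06). After median-of-ratios scaling these were 0.61 and 0.58. R7-III against R7-I was 0.07, with a 95% interval of -0.07 to 0.22.

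Skil (chr3:31095058-31122923) was at 21.59, 22.38 and 24.22 TPM in R7-I, 24.90, 23.80 and 22.94 in R7-II, and 19.77, 19.80 and 20.73 in R7-III. The R7-III libraries were the lowest, while R7-I and R7-II overlapped. R7-II against R7-I gave a log2 fold change of 0.07, with a 95% interval of -0.05 to 0.19, which turned to -0.10 after median-of-ratios scaling. Against R7-III the change was 0.24 ± 0.06 (SE, adjusted p = 0.00311, limma). This call did not pass after median-of-ratios scaling (0.12, adjusted p = 0.0518) or quantile normalization (0.06, adjusted p = 0.275). It did not pass either without R7-II replicate 1 (adjusted p = 0.0116), R7-III replicate 1 (0.0141) or R7-III replicate 2 (0.0138). The TPM ratio of Ski to Skil was 0.906 to 1.02 in R7-I, 1.10 to 1.14 in R7-III and 1.44 to 1.67 in R7-II, with no overlap between any clones.

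The genes most like the 5 members higher in R7-II in both comparisons, other than Skil, tracked them closely over the 9 libraries. For Tgfbr1 they were Tprgl and Bcl11b, a zinc finger factor of T cell commitment, with root mean square differences of 0.0294 and 0.0309 between centred log2(TPM + 1) values. Those for Tgfbr2 were Usp22 and Arhgap1 (0.0300 and 0.0332), and for Smad4 Pias1, a SUMO ligase, and the exonuclease gene Xrn1 (0.0285 and 0.0314). Ski was matched by Ankrd12 and Mgea5 (0.0290 and 0.0298). The nearest to Smad7 were Aldh6a1 and Fbxl12 (0.0634 and 0.0636), with an SD of Smad7 itself over the 9 libraries of 0.517, against 0.252 for Tgfbr1 and 0.359 for Ski.

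The rest of the TGF-β family was read from lists of 71 further genes, of which 48 were tested. Between R7-II and R7-I, 17 of the 48 were higher and 12 lower in R7-II, beside 40.6% and 15.5% of all genes. Against R7-III 19 were higher and 13 lower, beside 35.6% and 18.0%. These shares of all genes are also the background of the lists that follow, where a count is for 1 comparison. Where a count covers both comparisons at once, the background for a rise is 3615 of 11330 genes. That for a fall is not given here. After median-of-ratios scaling the counts were 13 and 16, and 18 and 16. The median log2 fold change of the 48 was 0.03 and 0.09, below the medians of all genes. Between R7-III and R7-I, Usp15, which encodes a deubiquitinase of the receptor complex, alone passed. It was at 80.4 ± 2.40 TPM in R7-I and 69.3 ± 2.50 in R7-III (SD, n = 3), a log2 fold change of -0.21 (adjusted p = 0.00384, limma). Without R7-I replicate 1 or 3, or R7-III replicate 1 or 2, it did not pass (adjusted p = 0.0229, 0.0130, 0.0218 and 0.0205).

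**Figure D5:**
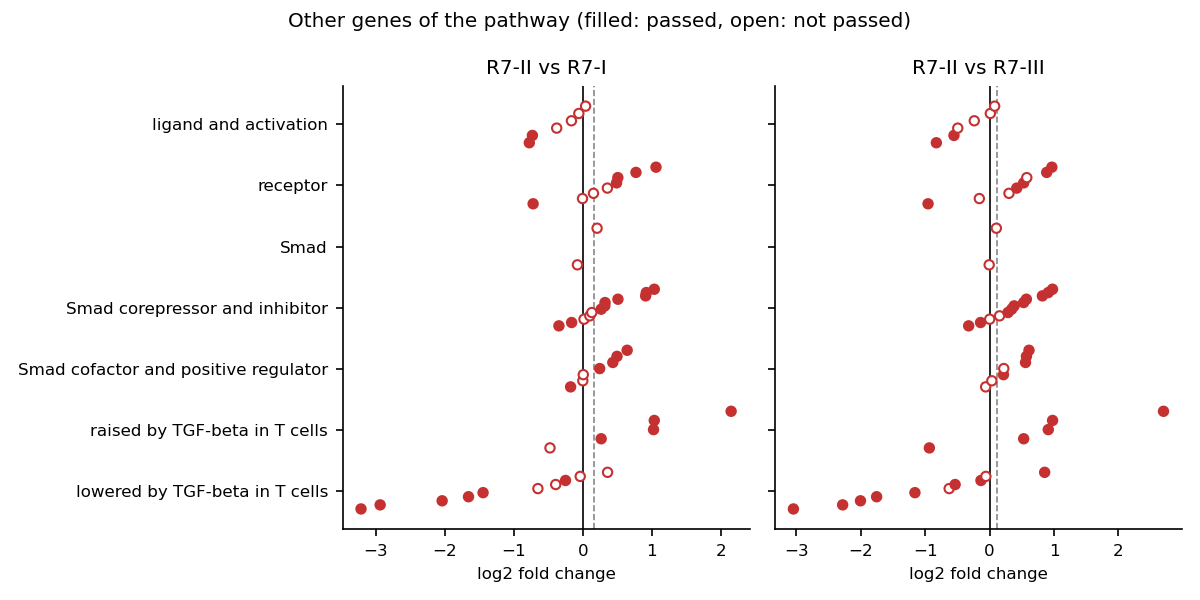
Log2 fold change on log2(TPM + 1) of each tested gene of 7 further lists in both comparisons of R7-II; each circle is a gene, filled if it passed an adjusted p of 0.01 in limma, and the dashed line is the median of all genes. Genes listed as lowered by TGF-β reach below -3, and Itgae, listed as raised, lies farthest to the right.

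Among 6 tested genes for other ligands and their activation, 2 were lower in R7-II in both comparisons and 0 were higher, with 0 also at an unadjusted p under 0.05 in limma. After median-of-ratios scaling 3 were lower in each comparison, Nrros, which holds latent TGF-β and was named after its values were seen, being added at -0.33 and -0.36 (adjusted p = 0.00511 and 0.00341, limma). The others were Gdf11, a related ligand, at 10.8 ± 0.890 TPM in R7-I, 6.14 ± 0.962 in R7-II and 11.6 ± 0.652 in R7-III, and Itgav, the integrin αV chain that takes part in releasing TGF-β from its latent form, at 28.2 ± 0.886, 16.1 ± 1.14 and 24.1 ± 0.733 (SD, n = 3). Of 8 other receptors, 4 were higher and 1 lower in R7-II in both comparisons (3 higher against R7-I after median-of-ratios scaling). Among them Acvr2a, named after its values were seen, lost its call against R7-I when R7-I replicate 1, R7-I replicate 2 or R7-II replicate 1 was left out (adjusted p up to 0.0115, limma). The co-receptor genes Eng and Tgfbr3 had the largest rises. Eng was at 9.76, 11.05 and 14.14 TPM in R7-I, 26.79, 29.28 and 20.18 in R7-II, and 13.38, 13.20 and 12.79 in R7-III, with no overlap of R7-II and the rest. Its log2 fold changes were 1.06 ± 0.14 and 0.89 ± 0.14 (SE), and those of Tgfbr3 0.77 ± 0.10 and 0.97 ± 0.10. The type I receptor gene Acvr1 was lower, at -0.72 and -0.96 (all adjusted p at most 7.47e-04, limma).

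Of 12 other corepressors and inhibitors, 7 were higher and 2 lower in R7-II compared with R7-I, and 8 and 2 against R7-III. Rescaled by median of ratios, these counts were 5 and 3, and 8 and 3. Smurf1, a ubiquitin ligase that works with Smad7 on the receptors, averaged 10.1 ± 0.155 TPM in R7-I, 20.1 ± 2.33 in R7-II and 9.69 ± 0.294 in R7-III (SD, n = 3). Its log2 fold changes were 0.92 ± 0.08 and 0.98 ± 0.08 (SE, adjusted p = 2.86e-06 and 1.85e-06, limma). Ldlrad4, which limits Smad activation, rose from 0.467 and 0.593 TPM in R7-I and R7-III to 2.01 in R7-II. Fkbp1a, whose protein guards the type I receptor, was lower in R7-II, at 451.7 ± 23.9 TPM against 573.7 ± 9.88 and 565.6 ± 9.77. The Smad7 partner gene Strap was lower by smaller amounts, log2 fold changes of -0.16 and -0.14, and the second did not pass after quantile normalization, nor when any 1 R7-II library was left out, nor without R7-III replicate 1 or R7-III replicate 3 (adjusted p up to 0.0193, limma).

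In both comparisons of R7-II, 4 of 7 cofactors and positive regulators were higher in that clone (3 after median-of-ratios scaling), led by the acetyltransferase genes Ep300 (log2 fold changes of 0.64 and 0.57) and Crebbp (0.50 and 0.61). In this list 1 gene, Usp15, was lower against R7-I, a call that did not pass without R7-I replicate 1 (adjusted p = 0.0110, limma). Against R7-III 0 were lower, also 0 at an unadjusted p under 0.05 in limma, but after median-of-ratios scaling Runx3, named after its values were seen, was lower, at -0.19 (adjusted p = 0.00738, limma). The other Smads tested, Smad1 and Smad5, stood at 10.6 to 12.4 and 16.0 to 16.9 TPM as clone means, and 0 of 2 passed in either comparison of R7-II, with Smad1 alone at an unadjusted p under 0.05, against R7-I, in limma. After median-of-ratios scaling Smad5 was lower in R7-II against R7-I, at -0.24 (adjusted p = 7.60e-04, limma).

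Genes known as targets of TGF-β in T cells were read last. Of 5 tested genes listed as raised by TGF-β, 4 exceeded both other clones in R7-II, namely Itgae, Cdkn1a, Pmepa1 and Ldlrad4, with Pmepa1 not passing against R7-I after median-of-ratios scaling and turning slightly negative after quantile normalization. Itgae, which encodes CD103, was at 10.69, 8.91 and 13.64 TPM in R7-I, 55.57, 40.97 and 61.31 in R7-II, and 6.81, 7.66 and 6.94 in R7-III. The R7-II libraries lay far above all others, with replicate 2 again the lowest of them. The log2 fold changes were 2.15 ± 0.16 over R7-I (SE, adjusted p = 1.03e-06, limma) and 2.70 ± 0.16 over R7-III (adjusted p = 2.46e-07). R7-III was below R7-I in every library, with a log2 fold change of -0.55 that did not pass (adjusted p = 0.0321, limma). CD103 is also carried by some dendritic cells. The sort for CD3+ CD8+ tetramer-positive cells was meant to leave these out, but the sorted cells were not fully pure. The MHC class II sums above were higher in R7-II, and their part in these values was not tested. Cdkn1a, a cell cycle inhibitor, averaged 63.0, 128.5 and 64.1 TPM.

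Of 10 tested genes listed as lowered by TGF-β, 6 were lower in R7-II compared with R7-I and 0 higher (0 also at an unadjusted p under 0.05 in limma). Against R7-III, 7 were lower and 1 higher, the latter being Gzma, named after its values were seen, at 1.05 against 0.127 TPM. Leaving out single libraries removed this call (without R7-III replicate 3, adjusted p = 0.0106, limma) and the calls against R7-III of Prf1, without R7-II replicate 2 or 3 or any 1 R7-III replicate (up to 0.0138), and Myc, without R7-II replicate 1 or 2 or R7-III replicate 1 or 2 (up to 0.0251). Tbx21, the gene of the effector factor T-bet, was at 45.51, 47.10 and 44.21 TPM in R7-I, 3.38, 6.47 and 5.91 in R7-II, and 54.34, 52.70 and 42.07 in R7-III. Its log2 fold changes were -2.94 ± 0.17 and -3.05 ± 0.17 (SE, adjusted p = 2.31e-07 and 2.02e-07, limma). Gzmb, which encodes the cytotoxic protease granzyme B, averaged 698.1 ± 175.4 TPM in R7-I, 73.8 ± 15.2 in R7-II and 365.9 ± 91.0 in R7-III (SD, n = 3). TGF-β activity was not measured, and whether TGF-β acted on any of the genes listed as its targets was not tested. The clones differ in T cell receptor, affinity and self-reactivity at once, and these cannot be told apart in the 9 libraries.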

How the data were processed

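RNA was sequenced from sorted, ROP7-activated CD8 T cells of 3 clones, with 3 biological replicates each, grouped by the clone named in the labels. The authors prepared polyA libraries, estimated gene levels with RSEM 1.2.11 on RefSeq genes of mm10 and deposited TPM values rounded to 2 decimals, without use of strand. TPM keeps no depth, so read numbers and counting errors are not known from these values. Between 13738 and 14434 genes were above 0 per library, and Pearson correlations of log2(TPM + 1) within a clone were 0.992 to 0.997. The authors' own tests used DESeq2 1.8.1 on counts, which were not used here.

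Genes with a maximum TPM above 1 were kept (11330 of 24060). A log2(TPM + 1) scale, with a pseudocount of 1, was fitted with limma 3.58.1 in R 4.3.3 (lmFit, eBayes with trend), all 9 libraries together, with p-values adjusted over every tested gene by Benjamini-Hochberg and a threshold of 0.01. Fold changes on this scale understate changes of low genes. Tables and figures were made with Python 3.11.15 and matplotlib 3.10.9.

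The members and lists were chosen with earlier results of these data known. Beside the members, the genes named were the 2 largest consistent changes per list and direction in R7-II, the largest in R7-III against R7-I, Itgae, the 2 most abundant markers of each cell type and the 2 genes nearest to each of the members Tgfbr1, Tgfbr2, Smad4, Smad7 and Ski. Pmepa1, Smad1, Smad5, Ppbp, Gzma, Nrros, Acvr2a, Runx3, Prf1 and Myc fall outside this rule and were named after their values were seen. The values of 1 further listed gene are not reported here. The myeloid gene Adgre1 was matched as Emr1. Positions and promoters came from RefSeq for GRCm38.p6. Alternatives were other pseudocounts, filters, scalings, moderation and thresholds, fits of only the clones compared, a replicate block, and leaving out each library.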

Additional observations from a re-analysis of the deposited data

How the results depend on the processing

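TPM holds no depth, so low genes such as Smad3 and Ldlrad4 have no counting interval, and with 3 libraries per clone the intervals rest on the spread pooled by limma. Of the members' fold changes under all alternatives, 495 kept direction and call, 19 no longer passed, 4 newly passed in the same direction and 10 changed sign, 1 of these passing with the other sign. The sign changed for Smad2 in R7-II against R7-I with median-of-ratios scaling (-0.11), quantile normalization (-0.20, which passed as lower in R7-II) and R7-II replicate 2 as the only R7-II library (-0.038). Against R7-III the same settings gave -0.036, -0.091 and -0.013. It changed for Skil in R7-II against R7-I with median-of-ratios scaling (-0.10) and quantile normalization (-0.18), and between R7-III and R7-I for Smad3 with quantile normalization (-0.066). For Smad4 between R7-III and R7-I, leaving out each library gave -0.067 to 0.012, positive only without R7-I replicate 3. The causes were not tested.

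The number of members that passed between R7-III and R7-I, 1, was 0 without a mean-variance trend and 0 to 1 when each library was left out, with 2 members at an unadjusted p under 0.05 in limma wherever it was 0. The number of further family genes passing there, 1, was 2 with a pseudocount of 0.1 and with a required maximum TPM above 5. It was 4 with median-of-ratios scaling, 3 with quantile normalization, 4 with only the clones compared and 7 at an adjusted p of 0.05. When each library was left out it was 0 to 4. Smad3 was removed by the required maximum above 5. With the replicate number as a block, a replicate block left 6, 7 and 1 members and 29, 31 and 0 further genes passing in the 3 comparisons, the last with 11 at an unadjusted p under 0.05 in limma. Same-numbered libraries shared little deviation, with correlations from -0.04 to 0.09. In 7 of 18 cases a library correlated best with its own number in another clone. No pairing by number was seen, but these values cannot show that same-numbered libraries were prepared apart.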
